A study of Mus musculus with 10 samples.

Results

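Integrin subunits were followed across 3 genotypes of primary mouse embryonic fibroblasts (MEFs). The members were 10 genes, chosen by name as Itga2, Itga3, Itga5, Itga6, Itga7, Itga9, Itgav, Itgb1, Itgb3 and Itgb5, among 12393 genes on the array. Every probe set annotated with one of these symbols alone was taken, which gave 26 of 20380 probe sets with 1 symbol. The series comprised 10 Affymetrix arrays of total RNA, with 3 arrays of wild type, 3 of Snf5-/- and 4 of Brg1-/- cells. Snf5 (gene symbol Smarcb1) and Brg1 (Smarca4) are the core and the ATPase subunit of the Swi/Snf nucleosome remodelling complex. Cells of all 3 groups came from E13.5 embryos on a mixed C57BL/6 and 129 background, and all received Cre by retrovirus followed by puromycin at 2.5 ug/ml. The labels do not name the floxed alleles, and leave unsaid if replicates were separate embryos or cultures, so p-values cover only the spread of these arrays, which may be technical.

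Integrins are paired alpha and beta chains that span the membrane and join the extracellular matrix to actin. The alpha chain largely sets the ligand. Alpha3, alpha6 and alpha7 bind laminins, alpha2 binds collagens, and alpha9 binds tenascin and osteopontin. Alpha5 and alphaV bind proteins with an RGD sequence, alpha5 mainly fibronectin and alphaV vitronectin, fibronectin and others. Beta1 pairs with every alpha chain named here, whereas beta3 and beta5 pair with alphaV to form vitronectin receptors. The genes are spread over the mouse genome (GRCm38.p6), with Itga6 and Itgav on chromosome 2, Itgb1 on 8, Itga9 on 9, Itga7 on 10, Itga3 and Itgb3 on 11, Itga2 on 13, Itga5 on 15 and Itgb5 on 16. Fibroblasts use these receptors to spread, to migrate and to assemble fibronectin fibrils.

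Promoter sequences were available from RefSeq (build GRCm38.p6) for 7 of the 10 members, at 8 transcription starts. They are shown for the beta chain that rose, for the main fibronectin receptor chain and for a laminin receptor chain, as the 250 bases before the start, read 5' to 3' on the gene's strand. Itgb5 is at chr16:33829415-33829664 on the plus strand, Itga5 at chr15:103366792-103367041 on the minus strand and Itga3 at chr11:95076715-95076964 on the minus strand. Capitals mark matches to the GC box GGGCGG on either strand.
Itgb5: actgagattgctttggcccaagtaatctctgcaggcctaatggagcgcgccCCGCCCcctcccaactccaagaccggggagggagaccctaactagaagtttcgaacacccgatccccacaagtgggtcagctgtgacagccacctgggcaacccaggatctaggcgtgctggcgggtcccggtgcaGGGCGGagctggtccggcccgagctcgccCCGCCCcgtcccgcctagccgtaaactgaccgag
Itga5: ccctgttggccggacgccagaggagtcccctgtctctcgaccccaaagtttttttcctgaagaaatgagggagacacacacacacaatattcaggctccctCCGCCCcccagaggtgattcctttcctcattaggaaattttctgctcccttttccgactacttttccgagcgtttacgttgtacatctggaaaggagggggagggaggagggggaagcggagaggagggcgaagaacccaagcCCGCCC
Itga3: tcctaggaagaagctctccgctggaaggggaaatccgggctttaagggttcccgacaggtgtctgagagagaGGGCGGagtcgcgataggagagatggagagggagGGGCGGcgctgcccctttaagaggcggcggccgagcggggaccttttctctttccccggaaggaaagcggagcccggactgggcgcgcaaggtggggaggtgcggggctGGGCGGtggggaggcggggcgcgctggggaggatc
The GC box occurred at 5 of the 8 member starts and at 32.7% of 32851 starts of all genes. Both Itga3 starts were among the 5. The windows of these 5 held 50.8% to 68.0% G and C, against a median of 52.4% over all starts. The AP-1 motif TGANTCA occurred at 0 of the 8 starts and at 6.75% of all starts. The TEAD motif GGAATG occurred at 1 of the 8, that of Itgb1, and at 12.6% of all. Both strands were searched and no matches of different motifs overlapped in the member windows. The GC box was present before Itgb5 and also before Itga3 and Itga5. Whether any of these motifs had a part in the intensity changes was not tested.

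The labels were checked against the targeted genes. Smarcb1 intensity was 951 ± 147 on wild type arrays, 297 ± 29.8 in Snf5-/- and 899 ± 103 in Brg1-/- arrays (SD, n = 3, 3 and 4). Smarca4 intensity was 2849 ± 853, 2807 ± 370.0 and 450.4 ± 105 in the same order. Each targeted gene was low in the group named for it. All 10 fibroblast markers passed the filter on dim probe sets, and their summed intensity was 96888 to 104282 on wild type arrays, 90131 to 111320 in Snf5-/- and 63127 to 80609 in Brg1-/- arrays. After quantile normalization 2 were higher and 1 lower in Snf5-/-, against 10.1% and 7.05% of all tested genes. In Brg1-/- 2 were higher and 2 lower, against 14.2% and 12.2%. Their averaged quantile-normalized log2 deviation ran from -0.12 to 0.10 in wild type, 0.21 to 0.37 in Snf5-/- and -0.71 to 0.09 in Brg1-/-. Median array intensity ran from 145.6 to 233.65, and mutant arrays were dimmer: on the deposited scale the median log2 change of all 14506 tested probe sets was -0.30 in Snf5-/- and -0.47 in Brg1-/- against wild type. Changes below are therefore log2 differences of quantile-normalized intensity, which set these medians to -0.01 and 0.0026, with the deposited scale given where the call or direction of a named integrin probe set or gene differed. Intensities of single arrays are the deposited ones. One Snf5-/- array, replicate 2, stood apart in 15 leukocyte markers, with a summed intensity of 10971 against 2938 and 3613 in the other Snf5-/- arrays, 3839 to 6773 in wild type and 2411 to 5069 in Brg1-/-. Endothelial and platelet markers, 11 on the array with Tie1 at or below background throughout, summed to 2166 to 2450 in wild type, 1251 to 2520 in Snf5-/- and 994 to 1126 in Brg1-/-. These sums are of deposited intensity. Only 5 of these markers were tested, and they differed in direction. In Snf5-/- 1 was higher and 0 lower, against 10.1% and 7.05% of all tested genes. In Brg1-/- 1 was higher and 2 lower, against 14.2% and 12.2%. The part of either list in the integrin values was not tested.

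The laminin-binding chains Itga3, Itga6 and Itga7, the fibronectin receptor chain Itga5 and the beta chain Itgb1 were lower in both mutants, and Itgb5 was higher. Itga6 was 3.08-fold lower in Snf5-/- and 2.59-fold lower in Brg1-/- than in wild type, and Itgb5 was 2.22-fold and 2.51-fold higher. Itga2, Itga9 and Itgav did not pass in either mutant, and Itgb3 was too dim to test. Of the 26 probe sets, 19 passed the filter on dim probe sets and were tested. The 7 left out were 1421997_s_at of Itga3, 1420860_at and 1450029_s_at of Itga9, 1426919_at, 1426920_x_at and 1438119_at of Itgb1, and 1421511_at, the only 1 of Itgb3. They were dim, and each was at or below background on at least 4 of the 10 arrays. In Snf5-/- against wild type, 4 were higher, against 8.71% of all tested probe sets, and 10 were lower, against 8% (limma, Benjamini-Hochberg adjusted p under 0.05). In Brg1-/- against wild type, 4 were higher, against 13% of all, and 9 were lower, against 12.1%. On the deposited scale the counts were 4 and 11 in each mutant, against a background of 2.81% and 17.7% in Snf5-/- and of 3.21% and 42.8% in Brg1-/-. Without Snf5-/- replicate 2, 15 probe sets were called in Snf5-/-. The share of all tested probe sets called in that fit is not given here, so this count has no background beside it. The 4 higher probe sets were the 4 of Itgb5. The comparisons share the 3 wild type arrays, so their directions are not independent of each other.

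**Figure D1:**
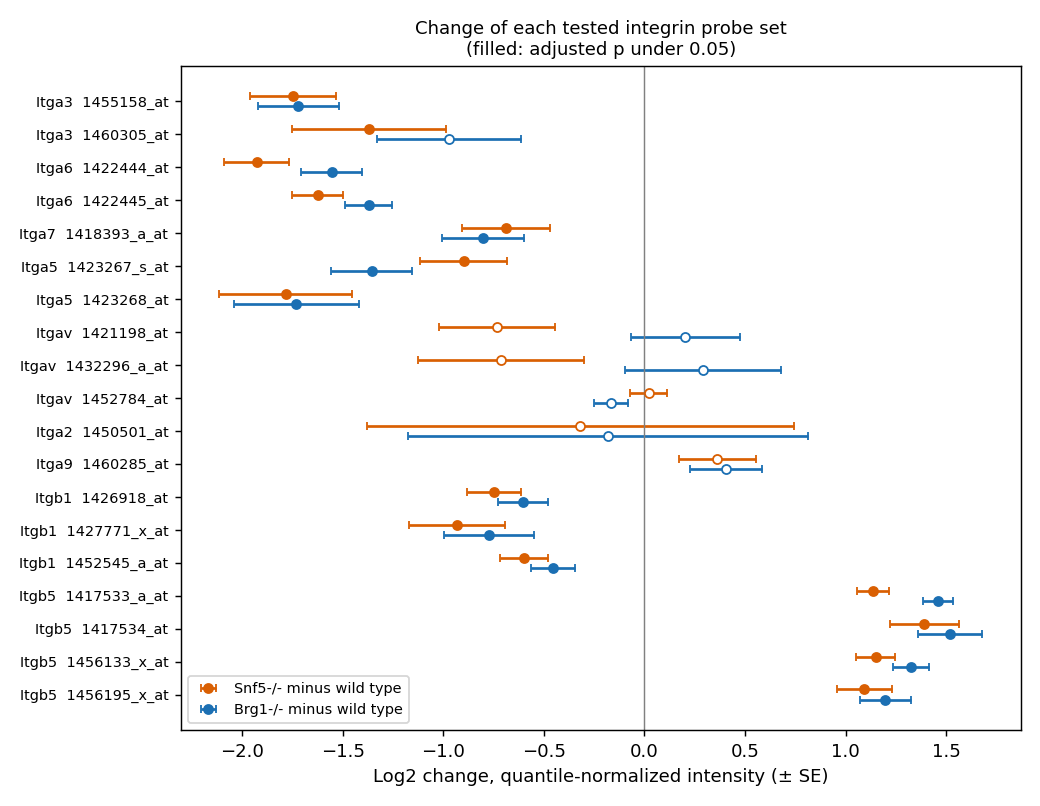
Log2 change of quantile-normalized intensity for each tested integrin probe set (horizontal axis) in Snf5-/- and Brg1-/- against wild type, with bars for the SE of the limma fit and filled points where the adjusted p passed. The 4 Itgb5 probe sets lie right of 0 in both mutants, those of Itga3, Itga5, Itga6, Itga7 and Itgb1 lie left of 0, and the bars of Itga2 are the widest.

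The laminin receptor chains fell in both mutants. Itga6, which forms the laminin receptors alpha6beta1 and alpha6beta4, read 2688, 1714 and 1752 in wild type replicates 1 to 3 at its brightest probe set, 1422445_at. The Snf5-/- arrays read 439, 479 and 647 and the Brg1-/- arrays 507, 524, 647 and 516. All 7 mutant arrays lay below all wild type arrays. The change was -1.62 ± 0.13 (SE, adjusted p = 1.94e-05) in Snf5-/- and -1.37 ± 0.12 (adjusted p = 1.58e-05) in Brg1-/-, by limma. Its second probe set, 1422444_at, changed by -1.93 and -1.55.

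Itga3, the chain of the laminin receptor alpha3beta1, was lower too. At 1455158_at the wild type arrays read 1135, 612 and 564, the Snf5-/- arrays 184, 175 and 171, and the Brg1-/- arrays 204, 138, 133 and 184. The mutant arrays did not reach the lowest wild type array. The change was -1.75 ± 0.22 (SE, limma adjusted p = 0.000287) in Snf5-/- and -1.72 ± 0.20 (adjusted p = 0.000123) in Brg1-/-. A second Itga3 probe set, 1460305_at, fell by 1.37 in Snf5-/- (limma adjusted p = 0.0302). Its change of -0.97 in Brg1-/- did not pass (adjusted p = 0.0666), although it passed on the deposited scale, at -1.36 (adjusted p = 0.00316). Its call in Snf5-/- held in 6 of the 10 fits that left out 1 array.

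Itga7, best known as the laminin receptor chain of skeletal muscle, was dimmer. Its intensity at 1418393_a_at was 363, 299 and 293 on wild type arrays, 143, 182 and 170 in Snf5-/-, and 170, 142, 106 and 137 in Brg1-/- arrays. No mutant array reached wild type. It changed by -0.69 ± 0.22 (SE, limma adjusted p = 0.0499) in Snf5-/-, a call that held in only 3 of 10 fits without 1 array, and by -0.80 ± 0.20 (adjusted p = 0.0129) in Brg1-/-, held in 10 of 10. Over 10 skeletal muscle markers, of which Myf5 and Tnnt1 were at or below background on all arrays, the summed intensity was 5785 to 9872 on wild type arrays, 946 to 1841 in Snf5-/- and 646 to 921 in Brg1-/-. Among them Acta1, the skeletal muscle actin, changed by -2.67 and -3.79. Only 3 of the 10 muscle markers were tested, with 0 higher and 1 lower in each mutant. Of all tested genes, 7.05% were lower in Snf5-/- and 12.2% in Brg1-/-. The quantile-normalized log2 deviation averaged over the 10 muscle markers overlapped between groups. It ran from 0.26 to 0.77 in wild type, -0.0036 to 0.45 in Snf5-/- and -1.35 to 0.50 in Brg1-/-. Over 12 epithelial and mesothelial markers, with Epcam at or below background on all arrays, the sums were 2029 to 2991, 1150 to 1606 and 771 to 1034. Of these 12, 7 were tested, with 0 higher and 3 lower in each mutant, beside the same shares of all tested genes. Their averaged quantile-normalized log2 deviation did not overlap between wild type and either mutant. It ran from 0.59 to 0.68 in wild type, -0.64 to 0.01 in Snf5-/- and -0.45 to -0.08 in Brg1-/-. The part of the muscle, epithelial and mesothelial markers in the changes of Itga3, Itga6 and Itga7 was not tested. In bulk RNA, fewer cells of a type and less RNA per cell cannot be told apart.

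**Figure D2:**
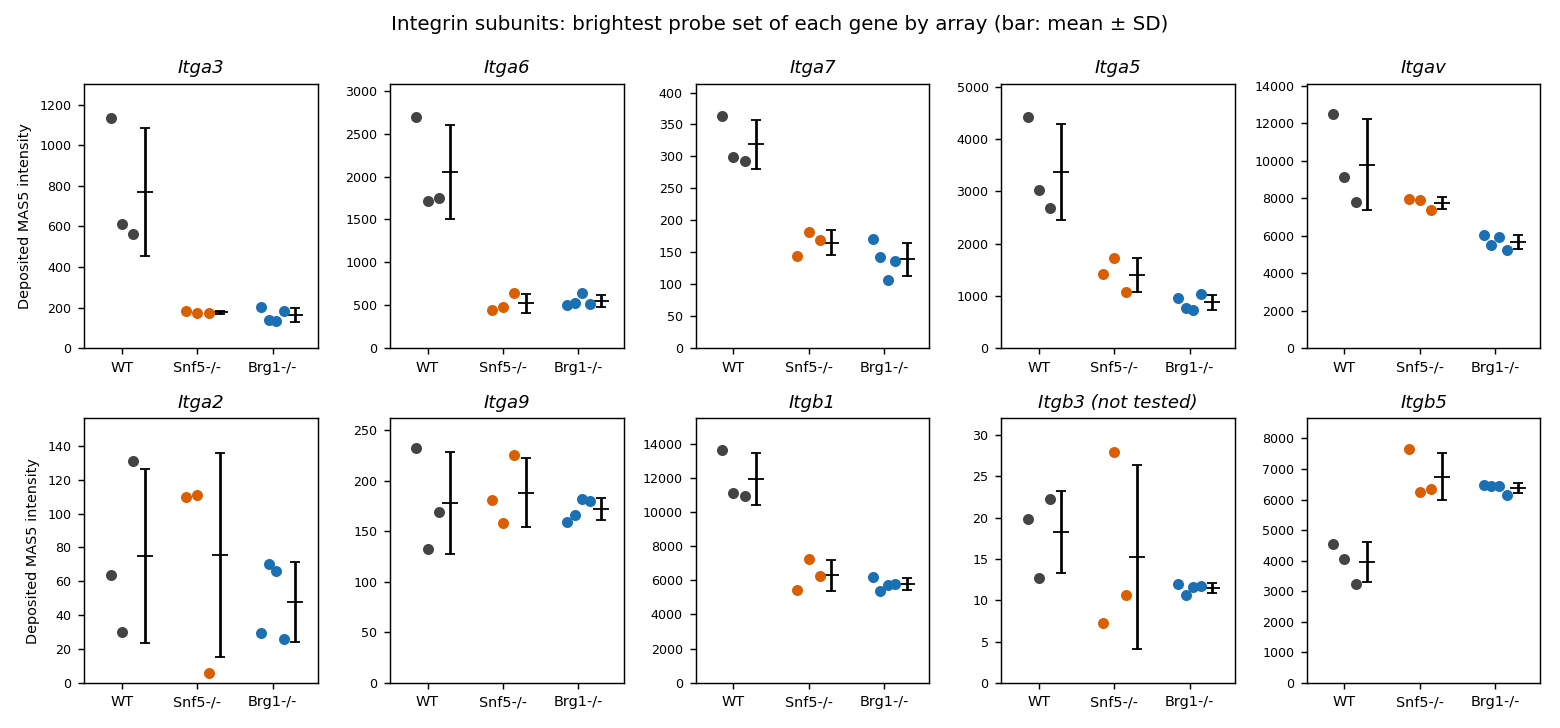
Deposited intensity (linear axes from 0, 1 panel per gene) of the brightest probe set of each integrin gene in each of the 10 arrays, by genotype, with the group mean and SD as bars. Itga3, Itga5, Itga6, Itga7 and Itgb1 separate wild type from both mutants downwards and Itgb5 upwards, whereas Itga2 scatters within every group and Itgb3 stays at or below background.

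Among the RGD-binding chains, Itga5 fell and Itgav did not pass the test. Itga5 forms alpha5beta1, the main receptor for fibronectin fibril assembly. At 1423267_s_at it read 4415, 3026 and 2685 on wild type arrays, 1419, 1726 and 1074 in Snf5-/-, and 963, 769, 733 and 1030 in Brg1-/- arrays. Each mutant array was below each wild type array. The suffix of this probe set means that it may match other transcripts. The change was -0.90 ± 0.22 (SE, limma adjusted p = 0.0152) in Snf5-/- and -1.36 ± 0.20 (adjusted p = 0.000591) in Brg1-/-. Leaving out wild type replicate 1 ended the call in Snf5-/- (adjusted p = 0.0506). The second probe set, 1423268_at, read 2401, 2041 and 2049 in wild type against 302, 832 and 472 in Snf5-/- and 520.4, 355, 356 and 635 in Brg1-/- arrays. Its groups did not overlap either, and it changed by -1.78 (limma adjusted p = 0.00384) and -1.73 (adjusted p = 0.00190).

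Itgav, the chain shared by the vitronectin receptors, read 12469, 9133 and 7783 on wild type arrays, 7983, 7921 and 7396 in Snf5-/-, and 6058, 5494, 5920 and 5217 in Brg1-/- arrays at 1452784_at. The Snf5-/- arrays overlapped wild type, and the Brg1-/- arrays lay below. Relative to the whole array the change was 0.02 ± 0.09 in Snf5-/- (SE, limma adjusted p = 0.900, 95% interval -0.18 to 0.22) and -0.17 ± 0.09 in Brg1-/- (adjusted p = 0.180). The Snf5-/- direction turned on the deposited scale, at -0.31 (limma adjusted p = 0.157), and the Brg1-/- value there was -0.76 (adjusted p = 0.000508), beside the overall median of -0.47. Another Itgav probe set, 1421198_at, read 302, 801 and 708 in Snf5-/- against 1132, 1042 and 1298 in wild type. Its change of -0.73 in Snf5-/- missed the threshold (limma adjusted p = 0.104) but passed on the deposited scale, at -1.05 (adjusted p = 0.0131). Without 1 array the change ran from -1.04 to -0.33 and passed in 1 of 10 fits, that without Snf5-/- replicate 2 (limma adjusted p = 0.0186). The 3 Itgav probe sets, the last being 1432296_a_at, changed by -0.73 to 0.02 in Snf5-/- and by -0.17 to 0.29 in Brg1-/-. On the deposited scale all 3 were below 0 in both mutants, at -1.05 to -0.31 and at -0.76 to -0.10.

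The collagen receptor chain gave no call. Itga2 (1450501_at) was near background, with 64, 30 and 131 on wild type arrays, 110, 111 and 6.1 in Snf5-/-, and 29.3, 70.5, 66.1 and 26 in Brg1-/- arrays. The groups overlapped throughout, and 1 Snf5-/- and 2 Brg1-/- arrays were at or below background, taken as the brightest Bacillus subtilis control of the array. The 95% interval ran from -2.64 to 2.00 in Snf5-/- and from -2.35 to 1.99 in Brg1-/-, an interval that holds both no change and a change as large as that of Itga6. Itga9 (1460285_at) read 233, 133 and 169 on wild type arrays, 181, 158 and 226 in Snf5-/-, and 160, 166, 183 and 180 in Brg1-/- arrays. These deposited groups overlapped. Its quantile-normalized changes of 0.36 (limma adjusted p = 0.225) and 0.41 (adjusted p = 0.121) did not pass, the second being -0.01 on the deposited scale. After quantile normalization the Brg1-/- arrays lay above wild type, at 190 to 200 against 115 to 175.

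Beta chains moved in opposite directions. Itgb1, the common partner of the alpha chains above, read 13653, 11128 and 10927 on wild type arrays, 5408, 7246 and 6237 in Snf5-/-, and 6223, 5352, 5749 and 5803 in Brg1-/- arrays at 1452545_a_at. All mutant arrays lay below wild type. The change was -0.60 ± 0.12 (SE, limma adjusted p = 0.00540) in Snf5-/- and -0.46 ± 0.11 (adjusted p = 0.00985) in Brg1-/-. The other tested Itgb1 probe sets, 1426918_at and 1427771_x_at, also fell, with changes of -0.75 and -0.93 in Snf5-/- and of -0.60 and -0.77 in Brg1-/-. The second of them kept its call in 7 of 10 fits without 1 array in Snf5-/- and in 4 of 10 in Brg1-/-. Its suffix means that some of its probes may match other transcripts. Itgb3 was at or below background on all 10 arrays, from 7.2 to 27.9, and was not tested.

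Itgb5, which pairs with alphaV in a vitronectin receptor, rose. At 1456133_x_at it read 4538, 4057 and 3236 on wild type arrays, 7649, 6242 and 6361 in Snf5-/-, and 6470, 6434, 6456 and 6134 in Brg1-/- arrays. Every mutant array exceeded every wild type array although the mutant arrays were dimmer as a whole. The change was 1.15 ± 0.10 (SE, limma adjusted p = 3.32e-05) in Snf5-/- and 1.33 ± 0.09 (adjusted p = 3.70e-06) in Brg1-/-. Its 4 probe sets, with 1417533_a_at, 1417534_at and 1456195_x_at as the others, changed by 1.09 to 1.39 in Snf5-/- and by 1.20 to 1.52 in Brg1-/-. On the deposited scale the ranges were 0.77 to 1.07 and 0.64 to 0.93, with all 4 called in both mutants. Each of the 4 kept its call in 10 of 10 fits without 1 array. The suffix of 1456133_x_at and 1456195_x_at means that some of their probes may match other transcripts.

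**Figure D3:**
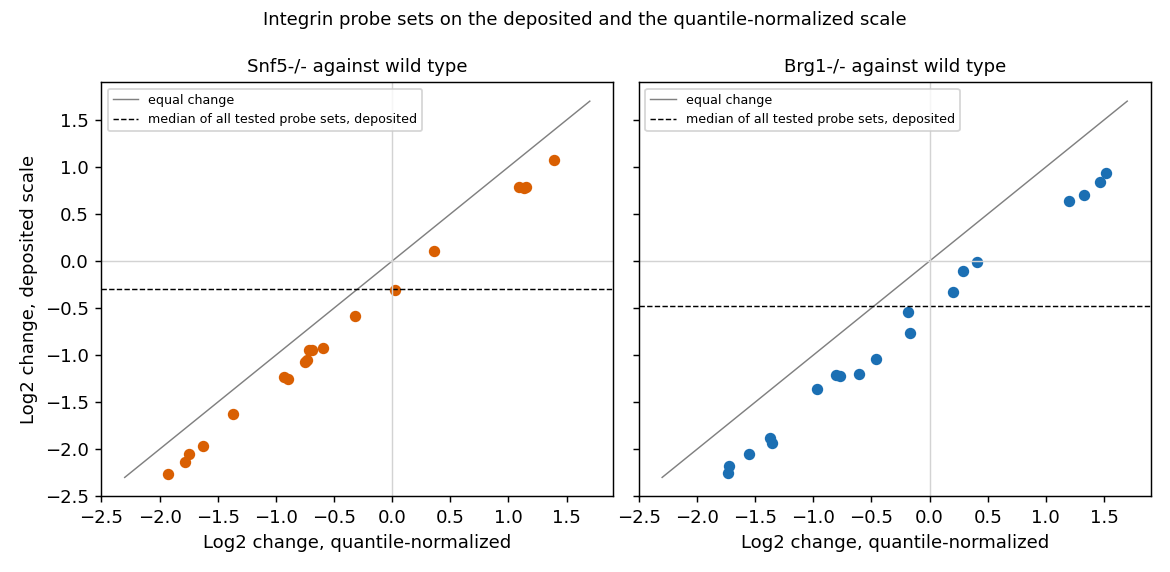
Log2 change against wild type of each tested integrin probe set on the deposited scale and on the quantile-normalized scale. Each point is a probe set, the solid line marks equal change and the dashed line the deposited median of all tested probe sets. In each panel the 4 points farthest to the upper right are those of Itgb5, and the points lie below the line of equal change.

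Averaged over the brightest probe set of each gene, the laminin-binding alpha chains were at -1.35 ± 0.07 in Snf5-/- and -1.30 ± 0.20 in Brg1-/- relative to the wild type mean (SD, n = 3 and 4). The RGD-binding chains were at -0.44 ± 0.30 and -0.76 ± 0.16. This mean and the Itga5 differences below use 1423267_s_at, which changed by -0.90 in Snf5-/- and -1.36 in Brg1-/-. The second Itga5 probe set, 1423268_at, changed by -1.78 and -1.73, so the contrast with the laminin-binding chains depends on the probe set taken. Whether receptor types differed was tested as a log2 difference within each array of deposited intensity, which does not depend on array scaling. Itga6 minus Itga5, laminin against fibronectin receptor, was -0.72 ± 0.10 on wild type arrays, -1.42 ± 0.61 in Snf5-/- and -0.66 ± 0.38 in Brg1-/-. The Snf5-/- value differed from wild type by -0.71 (exact two-sided permutation test, p = 0.2, where 0.1 is the smallest possible) and the Brg1-/- value by 0.05 (exact p = 0.857). Itga2 was at or below background on 3 of the 7 mutant arrays, so its differences from Itga5 and Itga6 could not be measured and are not read. With these numbers of arrays, a single test at its smallest possible p, 0.1 for Snf5-/- and 0.0286 for Brg1-/- against wild type, would not pass after adjustment over the 9 tests made. The tests therefore cannot decide whether the receptor types differed in response.

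**Figure D4:**
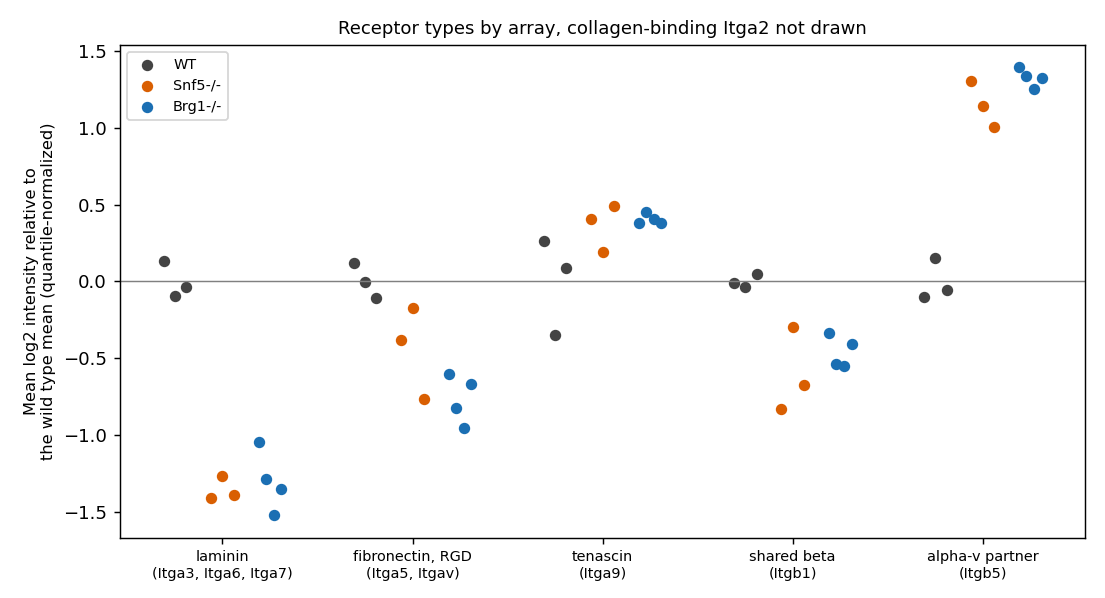
Mean log2 value relative to the wild type mean for each receptor type in each array, on the quantile-normalized scale. Only the brightest probe set of each gene is used. Laminin-binding alpha chains lie between -1.52 and -1.04 in the mutant arrays, RGD-binding chains lie between -0.95 and -0.17, and Itgb5 lies above 1. Itga2 is not drawn.

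Few integrin probe sets differed between the mutants. In Brg1-/- against Snf5-/-, 1 of 19 probe sets was higher, against 2.1% of all tested probe sets, and 0 were lower, against 1.9%. It was Itgb5 1417533_a_at, which read 5301, 5024 and 5644 in Snf5-/- and 5797, 5093, 6058 and 5410 in Brg1-/- arrays. Those intensities overlapped as deposited, and the call came from the quantile-normalized change of 0.32 ± 0.08 (SE, limma adjusted p = 0.0371). On the deposited scale the change was 0.07 (adjusted p = 0.809), and the call held in 3 of 10 fits without 1 array. Itgav 1421198_at read 925, 799, 954 and 1007 in Brg1-/- arrays and was 0.94 ± 0.27 above Snf5-/- (limma adjusted p = 0.0734). As deposited it was 0.73 (adjusted p = 0.125). Without 1 array the change ran from 0.53 to 1.25 and passed in 1 of 10 fits, that without Snf5-/- replicate 2 (limma adjusted p = 0.0316).

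Across the 10 arrays, members that fell followed each other as a description of arrays that share 3 group levels. Pearson's r was 0.92 between Itga3 and Itga6, 0.90 between Itga3 and Itga5 and 0.86 between Itga6 and Itgb1. It was -0.96 between Itga6 and Itgb5, and Itga2 stayed between -0.07 and 0.24 with every other tested member. Itgb5 had the largest overall F statistic of the members, 121. Among 8397 other genes, the patterns most like it over the 10 arrays were those of Fbln5 and Prkd3, both with r of 0.99, and Fkbp5, with 0.98. Fbln5, the elastic fibre protein fibulin-5, had mean intensities of 3356 on wild type arrays, 7333 in Snf5-/- and 6746 in Brg1-/- arrays. Prkd3, protein kinase D3, had means of 511, 832 and 844.

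The ligands were counted by the brightest probe set of each gene, for which 10.1% of 8398 genes were higher and 7.05% lower in Snf5-/-, and 14.2% and 12.2% in Brg1-/-. These shares were, as deposited, 3.13% and 15.8% in Snf5-/- and 3.32% and 43.1% in Brg1-/-. Of 7 tested laminin chains, 1 was higher and 0 lower in Snf5-/-, and 1 was higher and 2 lower in Brg1-/-, against 0 and 2 and 0 and 3 on the deposited scale. Lamc1, the gamma1 chain of most laminins, changed by 0.63 in Snf5-/- (limma adjusted p = 0.00408) and by 0.35 in Brg1-/- (adjusted p = 0.0352), but as deposited by 0.32 and -0.19, neither called. Lama2, the main muscle laminin alpha chain, fell by 0.96 in Brg1-/- (limma adjusted p = 0.00454) and changed by -0.64 in Snf5-/- (adjusted p = 0.0615), where the deposited value of -0.89 passed (adjusted p = 0.0262). Of 11 tested RGD and matricellular ligands, 1 was higher and 4 lower in Snf5-/-, and 2 were higher and 5 lower in Brg1-/-. As deposited, the counts were 1 and 5 in Snf5-/- and 0 and 8 in Brg1-/-. Fibronectin itself (Fn1) changed by -0.0009 in Snf5-/- (limma adjusted p = 0.997) and by -0.09 in Brg1-/- (adjusted p = 0.501). Its deposited Brg1-/- value was -0.32 (limma adjusted p = 0.00973), beside the median of -0.47 over all tested probe sets. Vitronectin (Vtn) was too dim to test. Periostin (Postn) changed by 1.33 in Snf5-/- (limma adjusted p = 0.000488) and by 0.72 in Brg1-/- (adjusted p = 0.00770), the latter being 0.07 and not called on the deposited scale (adjusted p = 0.744), while Adam15 changed by -0.97 and -0.95 and Mfge8, a secreted RGD protein that binds alphaV integrins, by -0.76 and -0.84. Of 10 collagens, 5 were higher and 0 lower in Snf5-/- and 1 was higher and 1 lower in Brg1-/-. The deposited values gave 2 higher and 0 lower in Snf5-/-, and 0 higher and 6 lower in Brg1-/-. Col3a1, a fibrillar collagen chain, changed by 1.86 in Snf5-/- (limma adjusted p = 0.000398) and by 1.13 in Brg1-/- (adjusted p = 0.00370, 0.52 and not called on the deposited scale). Median changes were -0.11 and -0.22 for laminins, -0.0009 and -0.35 for the list of RGD and matricellular ligands, and 0.42 and -0.03 for collagens, in Snf5-/- and Brg1-/-.

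Proteins that act with integrins were also counted by the brightest probe set of each gene. Of all tested genes, 10.1% were higher and 7.05% lower in Snf5-/-, and 14.2% and 12.2% in Brg1-/-. As deposited, these shares were 3.13% and 15.8% in Snf5-/- and 3.32% and 43.1% in Brg1-/-. Of 9 tested membrane partners, 0 were higher and 3 lower in Snf5-/-, and 0 were higher and 5 lower in Brg1-/-, with medians of -0.02 and -0.32. As deposited, 3 and 7 were lower and 0 higher. Cd151, the tetraspanin bound to laminin-binding integrins, changed by -0.77 (limma adjusted p = 0.00612) and -1.12 (adjusted p = 0.000213). Plaur, the urokinase receptor, changed by -1.32 and -1.47. Of 24 tested genes of integrin activation and the adhesion complex, 0 were higher and 3 lower in Snf5-/-, and 1 was higher and 7 lower in Brg1-/-, with medians of -0.03 and -0.16. On the deposited scale 7 and 19 of these were lower and 0 higher. Parva, a parvin that binds integrin-linked kinase, changed by -0.44 and -0.59, and Tns1, a tensin linking integrins to actin, fell by 0.90 in Brg1-/-. Of 10 tested other collagen and laminin receptors, 2 were higher and 1 lower in Snf5-/- and 0 were higher and 2 lower in Brg1-/-. The deposited values gave 1 higher and 3 lower in Snf5-/-, and 0 higher and 7 lower in Brg1-/-. Sdc4, the syndecan that acts with alpha5beta1 on fibronectin, rose by 1.05 in Snf5-/- (limma adjusted p = 0.00624) and changed by -0.21 in Brg1-/- (adjusted p = 0.476), where the deposited scale gave -0.68 (adjusted p = 0.0115). Sdc3 changed by -0.87 and -0.81. Of 13 further integrin-named genes on the array, 5 were tested, with 1 higher and 2 lower in Snf5-/- and 0 higher and 2 lower in Brg1-/-. The higher one was Itga8, an RGD-binding alpha chain, at 0.94 in Snf5-/- (limma adjusted p = 0.0286), which was not called on the deposited scale, at 0.68 (adjusted p = 0.0916), or in Brg1-/-, at 0.66 (adjusted p = 0.0662). Itgbl1, a secreted protein that resembles beta chains and is no receptor subunit, changed by -1.65 and -1.47, and Itgb1bp1, which binds the beta1 tail, by -0.57 and -0.53.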

How the data were processed

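Each deposited value is the linear MAS5 intensity of a probe set, per the submitters' processing notes and the values. The MAS5 version, scaling target and any filters are not given in the sources used here. Intensities were taken to log2 with no offset and quantile-normalized. Of 22690 probe sets, 64 were controls, 20380 had 1 gene symbol, 691 several and 1555 none. A probe set was tested if it reached the 40th percentile in at least 3 arrays, which kept 14506. The model (limma 3.58.1, R 4.3.3) took all 10 arrays and had 1 mean per group, eBayes with an intensity trend and 7 residual degrees of freedom. P-values were two-sided and adjusted by Benjamini-Hochberg over all tested probe sets within each of 3 comparisons, at a threshold of 0.05. The number of arrays limits the precision. Background was the brightest of 27 Bacillus subtilis controls per array, 26.7 to 57.4. The procedure was tested on simulated data. Alternatives were the deposited scale, median centring, other filters, an offset of 50, array weights, no trend, a replicate block, 2 groups only and leaving out each array. Every member and its probe sets are named, with up to 3 genes of smallest adjusted p from each related list and the 3 genes most correlated with the member of largest F. Fn1 and Vtn are named in addition, as ligands of the alpha5 and alphaV receptors. Members, lists and the background rule were chosen with earlier results of these data known.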

Additional observations from a re-analysis of the deposited data

Results flagged for a closer look

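In the 4 Brg1-/- arrays, 19 probe sets were searched for 1 array far from the rest, which chance would find in about 1 of 20, and 2 were found. Itgb1 1427771_x_at read 556 in Brg1-/- replicate 1 against 277 to 301 in the others (quantile-normalized), a gap of 0.880 of the group's range on the log2 scale. Itgb5 1417534_at read 4095 in the same array against 3720 to 3740, a gap of 0.943 of the range on that scale. Both gaps exceed Dixon's critical value for 4 arrays. The Itgb1 probe set is the one whose call in Brg1-/- held in 4 of 10 fits without 1 array.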

How the results depend on the processing

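In Snf5-/- and Brg1-/- against wild type, leaving out 1 array gave 11 to 15 and 12 to 14 called integrin probe sets. The shares of all tested probe sets called in the refits of this section are not given here, so their counts have no background beside them. With 1 probe set per gene there were 6 and 6, fewer by construction. The single call between the mutants was 0 under the deposited scale, median centring, no filter, 1 probe set per gene, array weights, the replicate block and the fit of only 2 groups, and 0 to 1 without 1 array. The replicate numbers gave no clear pairing of the arrays. Same-numbered arrays correlated at -0.09 to 0.12, and the best match of another number at -0.01 to 0.12. The same number was the best match for some arrays and not for others. The replicate block gave 13, 12 and 0 calls. Directions that turned were all of values not called. They were, on the deposited scale, Itgav 1452784_at in Snf5-/- (-0.31) and, in Brg1-/-, Itga9 (-0.013), Itgav 1421198_at (-0.33) and Itgav 1432296_a_at (-0.10); under median centring, Itgav 1452784_at in Snf5-/- (-0.047); with an offset of 50, Itga2 in Snf5-/- (0.077); and, in Brg1-/-, Itga2 with array weights (0.24) and the block (0.13). Without 1 array, Itga2 ran from -0.84 to 1.08 in Snf5-/- and from -0.70 to 0.13 in Brg1-/-, and Itgav 1452784_at from -0.048 to 0.095 in Snf5-/-. Within arrays, Itga6 minus Itga5 in Brg1-/- was -0.014 on quantile-normalized values and -0.11 to 0.16 without 1 array. Itga2 minus Itga5 ran from -0.0038 to 1.88 in Snf5-/- and from -0.49 to 1.39 between the mutants, and Itga6 minus Itga2 from -0.77 to 1.59 between the mutants. The causes were not tested. Of 762 single probe set values under alternatives, 697 kept direction and call, 41 lost the call, 12 gained it and 12 turned. Itga2 missed the filter in some fits and has no value there. Signal near background limits Itga2 and Itgb3.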
